A study of Mus musculus with 4 samples.

Results

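Depp1, the forkhead factors Foxo1, Foxo3 and Foxo4, and the fasting-linked genes Klf15, Ccng2, Txnip and Trib1 were examined in mouse primary hepatocytes with and without Prom1. These 8 genes were selected on their known link to FOXO or to fasting and on values of the same comparison of KO with WT libraries, so the differences given for them are a description and carry no test. All 8 were among the 22079 gene identifiers of the deposited table, and all 8 passed the filter on low values (a mean of at least 1 FPKM over all libraries), as did 10407 genes in all. FPKM is the number of fragments per kilobase of transcript, scaled to the mapped fragments of the library, so levels can be set beside each other between genes.

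Messenger RNA was sequenced from 2 libraries of wild-type cells (WT 1 and WT 2) and 2 of Prom1-/- cells (KO 1 and KO 2), which the series describes as biological replicates. The mice were C57BL/6 males aged 8 weeks. Hepatocytes attached for 4 hours in medium with 10% fetal bovine serum, 23 mM HEPES and 10 nM dexamethasone, a synthetic glucocorticoid, and all 4 cultures then spent a night without serum. The sources used here do not give whether insulin or dexamethasone was present during that night, how the Prom1 allele was made or how many mice gave a library. Prom1, a membrane glycoprotein of plasma-membrane protrusions, had 0.571 and 1.22 FPKM in the WT pair, a listed 0 in KO 1 and 0.0458 FPKM in KO 2. The depth was estimated at 14900000 to 19000000 fragments per library. Hepatocyte markers dominated every library, with a summed level of 17900 to 24700 FPKM over 15 genes, against 61.5 to 115 FPKM over 16 sinusoidal endothelial markers. Alb, which encodes albumin and is not on the marker list, was listed at 0 in WT 2 and at 25600 to 32700 FPKM in the other 3 libraries, so a listed 0 can be a failed estimate.

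FOXO proteins are transcription factors that insulin holds in the cytoplasm through phosphorylation by AKT. When insulin is low, as in fasting, they enter the nucleus and switch on genes of glucose production, autophagy, stress resistance and cell cycle arrest. Their activity is set mostly by this shuttling, so RNA levels of the factors and of their targets are separate readouts. In the fasted liver Klf15 directs amino acids towards glucose production, while Txnip, a binder of thioredoxin that restrains glucose uptake, also answers to glucose through the factors ChREBP and MondoA.

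FOXO proteins recognise a short forkhead core, and the stretches upstream of 4 genes of the group are shown because that core, or another element tied to fasting or glucose signals, can be read in them. RefSeq promoter windows (GRCm38.p6, the patch level of mm10 in the RefSeq table) were found for 6 of the 8 genes; Foxo4 and Trib1 had none. The 250 bases before each RefSeq start were searched on both strands for 5 patterns. These were the FOXO core GTAAACA, the forkhead variant GTAAATA, the insulin response element CAAAACA, the E-box CACGTG and the cAMP response element TGACGTCA. No 2 matches overlapped. Capitals mark the matches in the lines below, which read 5′ to 3′ on the plus strand, the strand of all 4 genes. For Depp1 (chr6:116650434-116650608), Klf15 (chr6:90462326-90462575) and Txnip (chr3:96557707-96557956) the bases before the gene's start in GENCODE M21 are given. For Ccng2 (chr5:93267543-93267572), whose GENCODE start lies further upstream, 30 bases around the match are given.
Depp1: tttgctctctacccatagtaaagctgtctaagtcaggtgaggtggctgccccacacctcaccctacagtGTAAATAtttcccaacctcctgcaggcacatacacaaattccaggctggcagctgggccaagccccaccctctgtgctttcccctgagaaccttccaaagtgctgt
Txnip: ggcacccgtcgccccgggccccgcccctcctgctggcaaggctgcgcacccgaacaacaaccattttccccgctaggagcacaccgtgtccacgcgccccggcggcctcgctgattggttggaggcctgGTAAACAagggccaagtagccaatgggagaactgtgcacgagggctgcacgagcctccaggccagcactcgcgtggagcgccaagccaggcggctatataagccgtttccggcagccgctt
Ccng2: gggcgtcgcagactCAAAACAaaaacaagg
Klf15: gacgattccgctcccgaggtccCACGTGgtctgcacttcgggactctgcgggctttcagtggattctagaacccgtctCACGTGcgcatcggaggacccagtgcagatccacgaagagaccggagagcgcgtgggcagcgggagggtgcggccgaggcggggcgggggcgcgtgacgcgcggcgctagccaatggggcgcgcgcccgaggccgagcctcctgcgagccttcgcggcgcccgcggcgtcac

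Txnip held the FOXO core, 121 to 115 bases before its RefSeq start, and Depp1 the forkhead variant, 181 to 175 bases before its own. Ccng2 held the insulin response element close to its start (bases 16 to 10 before it), and Klf15 held the E-box at 2 places. Foxo1 and Foxo3 held none of the 5 patterns in their windows, which says only that these letters are not there. Of all 32851 windows of the same length, 3.17% held the FOXO core, 2.73% the forkhead variant, 5.56% the insulin response element, 6.02% the E-box and 1.55% the cAMP response element. A match is a description of letters and was not tested as a binding site.

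Depp1 was the gene of the group that differed most between the genotypes. Depp1 encodes a small protein that FOXO factors induce and that has been linked to autophagy. WT 1 had 27.6 FPKM and WT 2 had 40.0 FPKM, while KO 1 had 10.9 FPKM and KO 2 had 8.62 FPKM. Both KO libraries were low and both WT libraries high, with no overlap: the higher KO value was 39.4% of the lower WT value. The KO mean of 9.74 ± 1.58 FPKM was 28.8% of the WT mean of 33.8 ± 8.77 FPKM (SD, n = 2), and the difference in log2(FPKM + 1) was -1.68 (SE 0.20). The gap between the WT replicates, 0.52 on the same scale, and that between the KO replicates, 0.30, were both smaller than the 1.27 that separated the nearest libraries of different genotype. Leaving out 1 library gave differences from -1.42 (without WT 2) to -1.94 (without WT 1). If all its fragments came from its longest annotated transcript, the Depp1 values rest on an estimated 146 to 706 fragments per library.

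The gene (ENSMUSG00000048489, plus strand, chr6:116650609-116652794 in mm10) lies inside the span of Rassf4, a gene of the RAS-association domain family on the minus strand. None of the 1358 exonic bases of Depp1 is exonic in Rassf4. Rassf4 was also low in both KO libraries, at 6.08 and 2.56 FPKM in KO 1 and KO 2 against 17.3 and 11 FPKM in WT 1 and WT 2. Its log2 difference was -1.56 (SE 0.36), which did not pass over all genes tested (limma adjusted p = 0.519). WT 1 was the library with most Rassf4 and WT 2 the one with most Depp1, so the order within WT differed between the neighbours. The strand setting of the authors' counting is not given in the sources used here, and the part of unspliced Rassf4 RNA in the Depp1 values was not tested.

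Among the FOXO factors, Foxo3 was the most abundant on average and had the tightest replicates. Foxo3 stood at 8.65 and 8.61 FPKM in WT 1 and WT 2, against 6.81 and 6.71 FPKM in KO 1 and KO 2. The replicates of each genotype nearly coincided, and the KO mean was 78.3% of the WT mean, a log2 difference of -0.31 (SE 0.11). Foxo1, the main FOXO driver of hepatic glucose production, stood at 5.38 and 5.07 FPKM in the WT pair against 4.05 and 2.78 FPKM in the KO pair. Its KO libraries lay below both WT libraries but apart from each other, and the log2 difference of -0.51 (SE 0.18) was -0.30 without KO 2. Foxo1 shares 674 of its 8665 exonic bases with an antisense gene on the opposite strand (Gm20402), which has no row of its own in the table, so its level is uncertain to that extent.

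Foxo4 was the exception. It stood at 7.12 and 6.34 FPKM in WT 1 and WT 2, at 4.47 FPKM in KO 1 and at 7.17 FPKM in KO 2, the highest of the 4 values. The libraries of the genotypes overlapped, and the log2 difference of -0.21 (SE 0.21) was 0.08 without KO 1 and -0.50 without KO 2. The sum of the 3 factors was 21.1 and 20.0 FPKM in WT 1 and WT 2 and 15.3 and 16.7 FPKM in KO 1 and KO 2. The total was therefore lower in both KO libraries although its make-up differed between them: Foxo1 made up 26.4% of it in KO 1 and 16.7% in KO 2, and Foxo4 29.2% and 43.0%. In WT the Foxo1 share was 25.4% and 25.3%. The fourth member of the family, Foxo6, was listed at 0 in all 4 libraries.

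**Figure D1:**
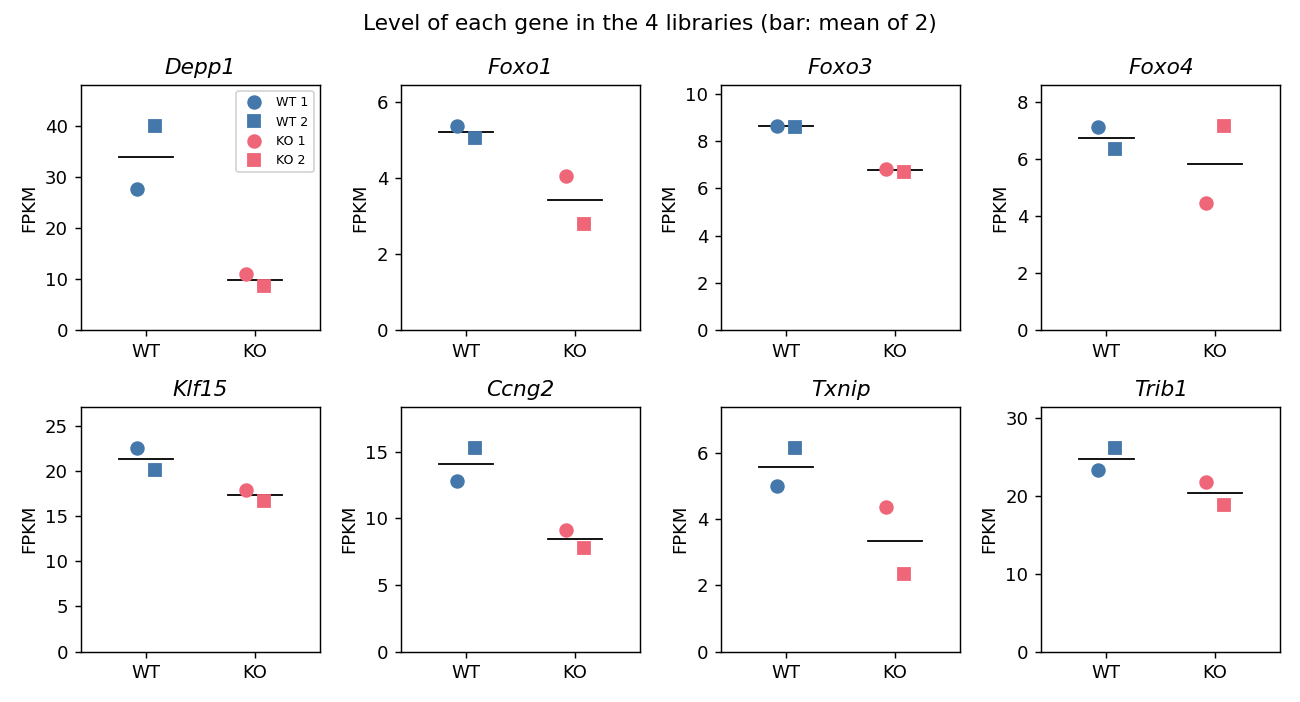
FPKM of each of the 8 genes (vertical axes, each from 0) in the WT and KO libraries; circles are replicate 1, squares replicate 2 and black bars the mean of 2. Both KO libraries lie below both WT libraries for 7 genes, and Foxo4 overlaps.

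Ccng2 and Txnip, genes that FOXO factors induce, came next after Depp1 in size. Ccng2, an unconventional cyclin associated with cell cycle arrest, stood at 12.8 and 15.3 FPKM in WT 1 and WT 2, against 9.14 and 7.76 FPKM in KO 1 and KO 2. Its libraries did not overlap, the KO mean was 60.2% of the WT mean, and the log2 difference was -0.67 (SE 0.14). Txnip stood at 5.01 and 6.17 FPKM in the WT pair against 4.37 and 2.34 FPKM in the KO pair. KO 1 lay just under WT 1 and KO 2 far lower, so that the log2 difference of -0.63 (SE 0.25) was -0.29 without KO 2 and -0.98 without KO 1. The KO 2 value of Txnip has the least depth of the group, an estimated 91.6 fragments. Txnip shares 606 of its 3123 exonic bases with the antisense gene Gm15441, which also has no row in the table.

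Klf15 and Trib1 were abundant and differed little. Klf15, a zinc-finger factor that fasting and glucocorticoids induce in liver, stood at 22.6 and 20.1 FPKM in the WT pair against 17.9 and 16.7 FPKM in the KO pair, which is a log2 difference of -0.29 (SE 0.11). Trib1, a pseudokinase that brings the ubiquitin ligase COP1 to C/EBP factors and affects hepatic lipid output, stood at 23.3 and 26.2 FPKM in the WT pair against 21.8 and 18.8 FPKM in the KO pair, which is a log2 difference of -0.28 (SE 0.12). Neither gene's libraries overlapped, but the nearest libraries of different genotype were only 0.16 apart for Klf15 and 0.09 for Trib1 on the log2 scale. The difference of Trib1 was -0.17 without KO 2.

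In mm10 and GENCODE M21 the 3 factors lie at chr3:52268336-52353221 (Foxo1), chr10:42181841-42276755 (Foxo3, minus strand) and chrX:101254528-101260873 (Foxo4). The other 4 genes lie on the plus strand at chr5:93267257-93276231 (Ccng2), chr3:96557957-96561883 (Txnip), chr6:90462576-90475238 (Klf15) and chr15:59648350-59657099 (Trib1).

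In all, 8 of 8 genes had a lower mean in KO, and 7 of 8 had both KO libraries below both WT libraries. Over all genes tested 19.8% had libraries apart in that direction and 18.3% in the other; since the group was selected with this comparison in view, its count is not read against those shares. The median log2 difference of the 8 genes was -0.41, and that of all genes tested was -0.001. KO 2 was the lowest of the 4 libraries for 7 genes, Foxo4 being the one not lowest there.

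Levels themselves also put the genes in a different order in each genotype. In WT the means ran from Depp1 (33.8 FPKM) through Trib1 (24.7), Klf15 (21.4), Ccng2 (14.0), Foxo3 (8.63), Foxo4 (6.73) and Txnip (5.59) to Foxo1 (5.22), and of these neighbours only Txnip and Foxo1 had overlapping libraries. In KO, Depp1 (9.74 FPKM) stood below Trib1 (20.3) and Klf15 (17.3), and overlapped Ccng2 (8.45), the next gene down. Foxo3 (6.76 FPKM) overlapped Foxo4 (5.82) in KO, and Foxo1 (3.42) overlapped Txnip (3.36). Depp1 therefore went from place 1 of 8 to place 3, while the other genes kept their places to within 1 position.

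Several of these genes are also expressed by endothelial cells, and bulk libraries cannot tell fewer cells of a type from less RNA per cell. The 16 sinusoidal endothelial markers summed to 80.2 and 82.2 FPKM in WT 1 and WT 2, to 115 FPKM in KO 1 and to 61.5 FPKM in KO 2. KO 1 thus lay above and KO 2 below both WT libraries. Of the 13 endothelial markers tested, 9 had a higher and 4 a lower mean in KO. Of the 13, 1 was apart and higher (18.3% of all genes tested) and 0 apart and lower (19.8% of all genes). The median log2 difference of the 13 markers was 0.06, or -0.34 without KO 1 and 0.46 without KO 2. The defining endothelial gene Pecam1 stood at 6.76 and 7.46 FPKM in the WT pair against 6.85 and 3.76 FPKM in the KO pair. Cdh5 stood at 7.59 and 8.60 FPKM against 8.15 and 5.23 FPKM. These 2 genes had a lower mean in KO (-0.41 and -0.27), unlike most of the list. The 7 genes of the group lowest in KO 2, Depp1 (8.62 FPKM) among them, were low where these markers were low. The same 7 genes also lay below both WT libraries in KO 1 (Depp1 at 10.9 FPKM), where the endothelial sum was highest (115 FPKM). The part of endothelial cells in the results was not tested. The 14 stellate cell and fibroblast markers followed the same order of libraries (15.7 and 17.5 FPKM in WT, 26.9 FPKM in KO 1 and 12.0 FPKM in KO 2). The 14 macrophage markers summed to 475 and 495 FPKM in WT and to 524 and 593 FPKM in KO. Of 11 tested, 5 had both KO libraries above both WT libraries (18.3% of all genes tested) and 2 below (18.2%, against 19.8% of all genes). The 8 cholangiocyte markers summed to 37.6 to 41.6 FPKM in 3 libraries and to 28.3 FPKM in KO 2. No marker of these lists was at 0 in all libraries.

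**Figure D2:**
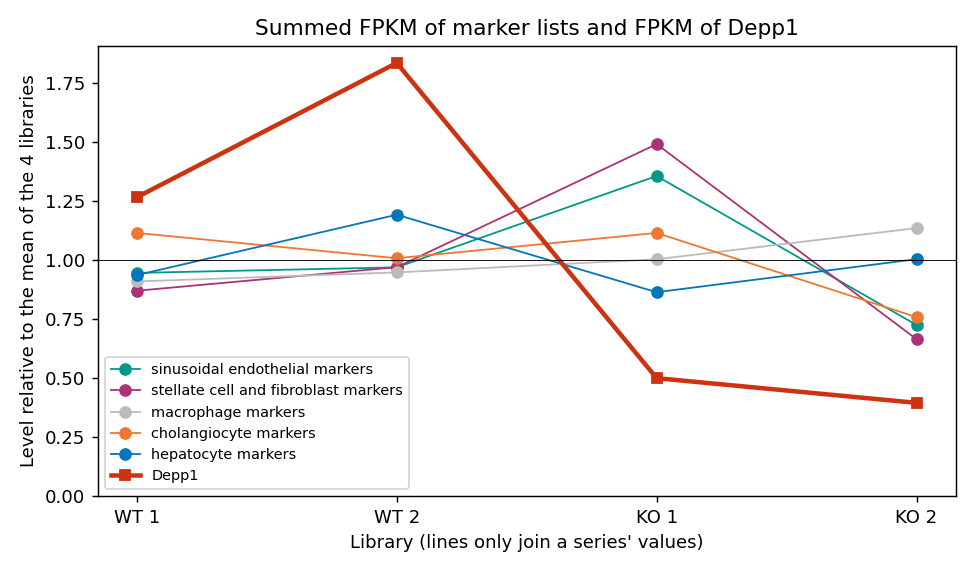
Summed FPKM of each marker list, and FPKM of Depp1, in each library, divided by its mean over the 4 libraries (vertical axis, no unit, 1 is the mean). Endothelial and stellate cell markers were highest in KO 1 (115 and 26.9 FPKM) and lowest in KO 2 (61.5 and 12.0 FPKM); Depp1 stood at 10.9 FPKM in KO 1 and was lowest in KO 2 (8.62 FPKM).

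The genes nearest to Depp1 over the 4 libraries were found by the Euclidean distance between log2(FPKM + 1) profiles, each centred on its own mean. This distance takes in the size of the differences as well as the order of the libraries. The 6 nearest were Bnip3 (distance 0.17), Ndufa4l2 (0.19), Selenbp1 (0.30), Saa3 (0.42), Sds (0.57) and Slc10a6 (0.60). Bnip3, a mitochondrial protein of mitophagy that hypoxia and FOXO factors induce, stood at 75.0 and 115 FPKM in the WT pair against 32.1 and 29.1 FPKM in the KO pair. Ndufa4l2, a mitochondrial protein that hypoxia induces, stood at 10.3 and 13.9 FPKM in the WT pair against 4.18 and 2.68 FPKM in the KO pair. Selenbp1, a selenium-binding protein, stood at 167 and 259 FPKM in the WT pair against 68.3 and 72.1 FPKM in the KO pair. All 6 had WT 2 as their highest library, as Depp1 did, which largely follows from their choice by nearness to Depp1. Sds, which breaks down serine, Saa3, an acute phase protein, and Slc10a6, a steroid sulfate transporter, had log2 differences of -1.12, -1.60 and -1.10. With 4 libraries a short distance describes these libraries only. None of the other 7 genes of the group was as near, but a gene with smaller differences lies further off on this measure. Ccng2 lay at 1.03, Txnip at 1.10 and Foxo1 at 1.25, and the furthest was Foxo4 at 1.67. Rassf4, the gene whose span holds Depp1, lay at 0.95, nearer than any other gene of the group. Ccng2, Txnip and Trib1 had the same order of libraries as Depp1. In WT 1, WT 2, KO 1 and KO 2 the centred values of Ccng2 were 0.22, 0.45, -0.23 and -0.44. Those of Depp1 were 0.58, 1.1, -0.69 and -0.99.

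**Figure D3:**
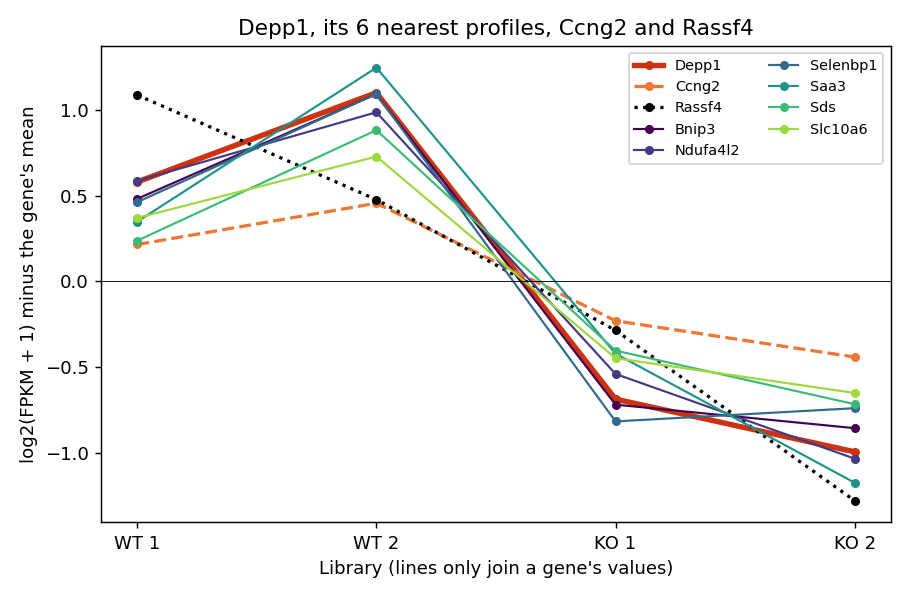
log2(FPKM + 1) minus the gene's own mean (vertical axis) in each library for Depp1, the 6 genes nearest to it, Ccng2 and Rassf4. Bnip3 and Ndufa4l2 lie almost on the line of Depp1 (distances 0.17 and 0.19), and Rassf4 differs from it in having its highest value in WT 1.

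The rest of the pathway was described from 11 lists of 216 further genes, of which 193 were tested. By limma 0 of the 193 had a Benjamini-Hochberg adjusted p under 0.05 (lowest 0.239), as was true of 0.0% of all 10407 genes, where 759 had an unadjusted p under 0.05. No gene below is therefore said to have changed, and the lists are described by counts. The lists too were chosen with earlier results of these data known, so the shares over all genes beside them give scale and no test.

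Other target genes of FOXO factors were mostly lower in KO. Of 35 tested, 31 had a lower and 4 a higher mean, 23 had both KO libraries below both WT libraries (65.7%, against 19.8% of all genes tested) and 1 had them above (18.3% of all genes). The median log2 difference was -0.26, against -0.001 over all genes. An unadjusted limma p under 0.05 was found for 12 genes, 11 of them lower, against 759 of all 10407 genes. The 3 largest differences among genes with libraries apart belonged to Bnip3 (-1.58, SE 0.20), to Pck1 (-1.18, SE 0.12), which makes phosphoenolpyruvate for glucose production, and to G6pc (-1.0, SE 0.25), which releases glucose. Pck1 stood at 15.7 and 16.9 FPKM in the WT pair against 6.38 and 6.94 FPKM in the KO pair, and G6pc at 2.2 and 3.35 against 0.608 and 1.15 FPKM. Their adjusted p-values were 0.311, 0.239 and 0.541. Hepatocyte markers were also mostly lower: of 15 tested, 12 had a lower and 3 a higher mean. Of the 15, 2 were apart and lower (13.3%, against 19.8% of all genes) and 1 apart and higher (18.3% of all genes). The median of the hepatocyte markers was -0.19, or -0.42 without WT 1 and -0.45 without KO 2. Leaving out WT 2 gave 0.06 and leaving out KO 1 gave -0.03. Their part in the counts of FOXO targets and fasting regulators was not tested.

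Among targets that act in autophagy, Gabarapl1 (-0.46), Map1lc3b (-0.43), Ulk1 (-0.37), Atg14 (-0.24; -0.15 without KO 2) and Pink1 (-0.17; -0.05 without WT 2) had libraries apart, as Bnip3 did, while Ulk2 overlapped (-0.28; -0.05 without WT 2). Gabarapl1, which coats autophagosomes, stood at 141 and 154 FPKM in the WT pair against 98.2 and 116 FPKM in the KO pair. Irs2, which relays the insulin signal, stood at 4.66 and 7.67 FPKM in the WT pair against 3.68 and 4.83 FPKM in the KO pair, with overlap (-0.42; -0.12 without WT 2), while the insulin receptor gene Insr differed by -0.10. Of the 4 targets with a higher mean, Gadd45a, a DNA damage response gene, stood at 49.8 and 47.9 FPKM in the WT pair against 59.7 and 65.9 FPKM in the KO pair (0.35, SE 0.10), the 1 gene with both KO libraries above. The other 3, Sesn2 (0.15), Cited2 (0.27) and Gadd45b (0.04), overlapped, and leaving out 1 library gave 0.06 to 0.48 for Cited2, 0.06 to 0.25 for Sesn2 and -0.26 to 0.33 for Gadd45b. Sesn1, a stress-induced relative of Sesn2, was lower with libraries apart (-0.53; -0.30 without WT 2), and Sesn3 overlapped (-0.22). The genes of these sentences other than Bnip3 were named after their values were seen.

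**Figure D4:**
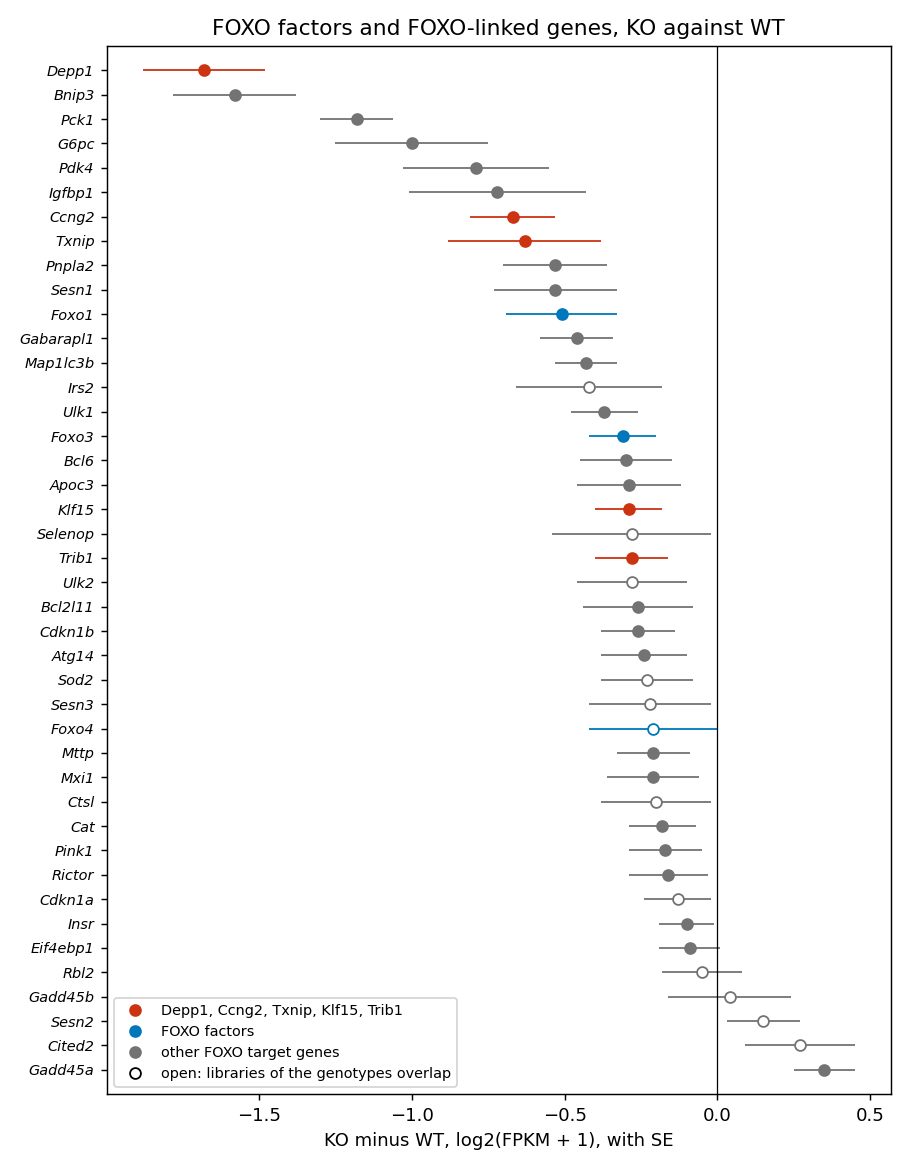
Difference in log2(FPKM + 1), KO minus WT (horizontal axis), with its standard error, for the 3 FOXO factors (blue), the other 5 genes of the group (red) and the other FOXO target genes (grey), of which 1 of the 35 tested is not drawn. Open circles have overlapping libraries; Depp1 lies at -1.68 and Gadd45a at 0.35.

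Regulators of the fasting response form a list that shares genes with the FOXO targets, such as Igfbp1, and with the hepatocyte markers, such as Hnf4a. Of 26 tested, 20 had a lower mean, 15 had both KO libraries below both WT libraries (57.7%, against 19.8% of all genes tested) and 1, Klf10, had them above (0.08), and 7 had an unadjusted p under 0.05, all lower. The median was -0.21, and -0.11 without WT 2, beside the -0.19 of the hepatocyte markers. Igfbp1, a secreted binder of insulin-like growth factors that is a classic FOXO1 target, stood at 217 and 337 FPKM in the WT pair against 209 and 129 FPKM in the KO pair. Its difference of -0.72 (SE 0.29, limma adjusted p = 0.682) was -0.40 without WT 2 and -0.37 without KO 2. Ppara, which drives fatty acid oxidation in fasting, differed by -0.60 (SE 0.15), and Hnf4a, a master factor of hepatocytes, by -0.58 (SE 0.10), with 90.4 and 95.8 FPKM in the WT pair against 64.9 and 59.5 FPKM in the KO pair. The glucocorticoid receptor gene Nr3c1, whose ligand induces Klf15, was level, at 17.8 and 16.3 FPKM in the WT pair against 17.1 and 15.6 FPKM in the KO pair. The coactivator gene Ppargc1a stood at 0.432 to 0.648 FPKM in the 4 libraries, under the filter.

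Upstream of FOXO lies the insulin signal. Of 21 tested genes of insulin and AKT signalling, 13 had a lower mean, and the median was -0.07. Both KO libraries lay below for 6 (28.6%, against 19.8% of all genes tested) and above for 1, Mlst8 (0.05). An unadjusted limma p under 0.05 was found for 0, against 759 of all 10407 genes. Akt1 stood at 50.3 and 53.9 FPKM in the WT pair against 51.6 and 55.6 FPKM in the KO pair, and Akt2, the main AKT kinase of liver, at 24.2 and 28.2 against 24.9 and 26.8 FPKM. The largest difference with libraries apart was that of Sgk1, a kinase that also phosphorylates FOXO factors, at 7.72 and 9.13 FPKM in the WT pair against 7.39 and 4.62 FPKM in the KO pair (-0.45; -0.16 without KO 2 and -0.74 without KO 1). Inppl1 (-0.19; -0.11 without WT 1) and Sgk3 (-0.17; -0.09 without KO 1) followed. Among 26 tested cofactors and modifying enzymes of FOXO proteins the median was -0.03 (-0.05 without WT 2). Of these, 7 were apart and lower (26.9%, against 19.8% of all genes) and 2, Prmt1 and Crebbp, apart and higher (18.3% of all genes). The acetyltransferase genes Kat2b (-0.32, SE 0.10) and Ep300 (-0.26, SE 0.11) had the 2 largest differences among those with libraries apart. The arginine methyltransferase gene Prmt1 followed (0.20, or 0.11 without KO 1). In that list 1 gene had an unadjusted limma p under 0.05, against 759 of all 10407 genes. RNA levels say nothing of the phosphorylation state of AKT or of FOXO proteins.

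Counts of genes apart and lower among relatives of Klf15 and Ccng2 lay near the share over all genes tested. Of 10 other KLF genes tested, 2 had both KO libraries below (20.0%, against 19.8% of all genes) and 3 above (Klf3, Klf10 and Klf16), against 18.3% of all genes. By limma 2 had an unadjusted p under 0.05, against 759 of all 10407 genes. The median of 0.02 was -0.09 without WT 1, -0.07 without KO 2 and 0.09 without KO 1. Klf9, like Klf15 a glucocorticoid-responsive factor, was lower, at 19.7 and 23.6 FPKM in the WT pair against 16.3 and 17.2 FPKM in the KO pair (-0.35; -0.22 without WT 2), and Klf13 differed by -0.19 (-0.10 without KO 2). Klf3 was higher, at 30.1 and 26.1 against 37.1 and 33.5 FPKM (0.32, SE 0.12). The other cyclin G gene, Ccng1, stood at 29.9 and 30.3 FPKM in the WT pair against 29.5 and 30.9 FPKM in the KO pair, a difference of 0.01 that took either sign with 1 library left out. Of 13 cell cycle genes tested, 3 were apart and lower (23.1%, against 19.8% of all genes) and 0 apart and higher (18.3% of all genes). The 3 lower genes were Ccnd3 (-0.26), the cell cycle inhibitor gene Cdkn1b (-0.26) and Gak (-0.06, or -0.03 without KO 1 and -0.09 without KO 2). That list had a median of -0.06 (-0.03 without KO 1 and -0.09 without KO 2). An unadjusted limma p under 0.05 was found for 1 of its genes, against 759 of all 10407 genes.

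Trib3, the tribbles gene that stress induces, was higher in KO where Trib1 was lower, at 58.8 and 46.6 FPKM in the WT pair against 65.3 and 78.3 FPKM in the KO pair (0.44, SE 0.15, limma adjusted p = 0.614; 0.28 without WT 2). Cop1, the ligase partner of Trib1, overlapped (22.2 and 27.2 against 20.9 and 28.6 FPKM). Cebpb, which encodes a C/EBP factor, stood at 39.8 and 40.3 against 37.1 and 30 FPKM (-0.26; -0.11 without KO 2 and -0.41 without KO 1), and the lipogenic gene Acaca differed by -0.28. In all, 4 of the 10 genes of this list were apart and lower (40.0%, against 19.8% of all genes tested) and 1 apart and higher (18.3% of all genes). The median of -0.05 was -0.11 without WT 1 and -0.09 to -0.10 without any other library.

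Txnip binds thioredoxin and belongs to the arrestin-domain family. A list of that system and family, which also holds Ddit4, had 12 genes tested. Both KO libraries lay below for 0 (19.8% of all genes tested) and above for 2 (18.3% of all genes). By limma 0 had an unadjusted p under 0.05, against 759 of all 10407 genes. The median of -0.02 was 0.04 without WT 1 and -0.06 without WT 2. Txn1, the cytosolic thioredoxin that Txnip binds, stood at 226 and 215 FPKM in the WT pair against 214 and 258 FPKM in the KO pair, and mitochondrial Txn2 at 140 and 129 against 152 and 161 FPKM (0.22). The other gene with its libraries above was Arrb1 (0.04). Arrdc4, the arrestin-domain gene that answers to glucose alongside Txnip, overlapped, at 5.31 and 4.53 FPKM in the WT pair against 3.99 and 5.47 FPKM in the KO pair. Of 16 genes of ChREBP, MondoA and their targets, 5 were apart and lower (31.2%, against 19.8% of all genes) and 1 apart and higher (18.3% of all genes). The median was -0.05 (0.03 without WT 1 and -0.07 to -0.10 without any other library). The higher gene was Pklr, the liver pyruvate kinase, at 69.7 and 80.4 FPKM in the WT pair against 110 and 123 FPKM in the KO pair (0.63, SE 0.12, adjusted p = 0.487). Thrsp differed by -0.35 and Mlxip, which encodes MondoA, by -0.30 (-0.18 without WT 2 and -0.16 without KO 2), whereas Mlxipl, which encodes ChREBP, overlapped, at 101 and 119 FPKM in the WT pair against 103 and 99.7 FPKM in the KO pair.

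Amino acid breakdown genes linked to Klf15 were uneven. Of 15 tested, 5 were apart and lower (33.3%, against 19.8% of all genes tested) and 1 apart and higher (18.3% of all genes). The median of -0.12 was -0.38 without KO 2 and -0.01 without KO 1. Sds stood at 4.69 and 7.89 FPKM in the WT pair against 2.65 and 1.94 FPKM in the KO pair (-1.12, SE 0.25, limma adjusted p = 0.519), and Gpt2, an alanine transaminase, differed by -0.33. Bckdhb, a subunit of the branched-chain ketoacid dehydrogenase, was higher, at 20.6 and 19.6 FPKM in the WT pair against 26.4 and 28.7 FPKM in the KO pair (0.44, SE 0.10). The 32 autophagy genes tested share some members with the FOXO targets and had a median of -0.15. Of these, 15 were apart and lower (46.9%, against 19.8% of all genes). Another 4 (Sqstm1, Lamp1, Wipi2 and Atg5) were apart and higher, against 18.3% of all genes. Among those with libraries apart, the largest differences after Bnip3 were those of Bnip3l, a mitophagy receptor gene (-0.52, SE 0.12), and of Atg13, a part of the initiating kinase complex (-0.47, SE 0.13).

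**Figure D5:**
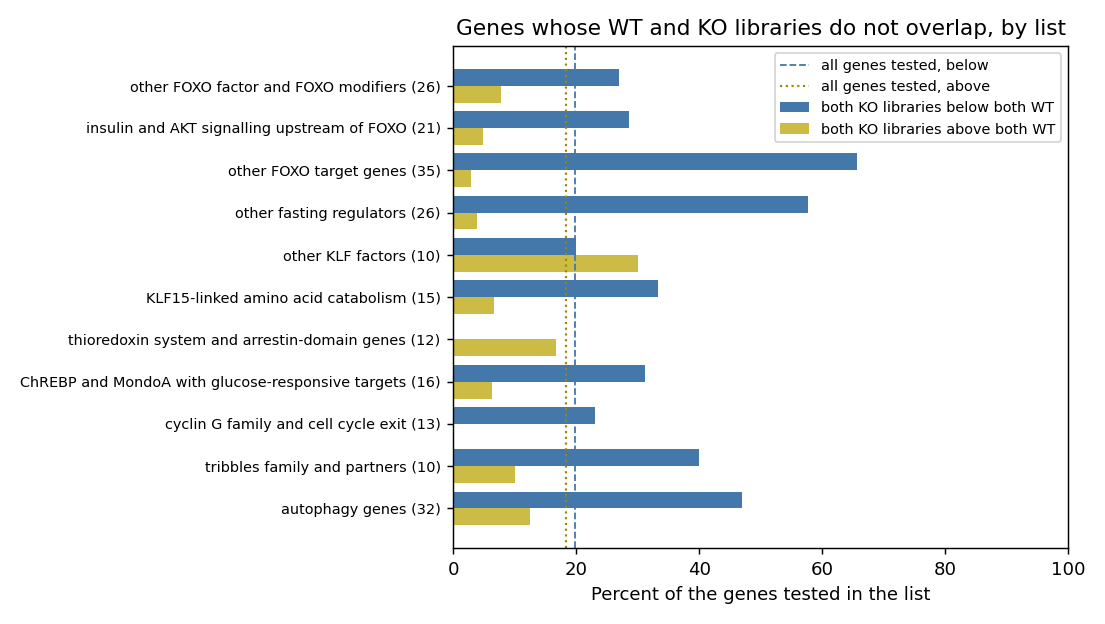
Percent of the tested genes of each list (horizontal axis, number tested in brackets) whose KO libraries both lie below (blue) or above (yellow) both WT libraries; dashed and dotted lines give the same over all genes tested, 19.8% and 18.3%. FOXO targets (65.7%) and fasting regulators (57.7%) have the 2 longest blue bars. The lists were chosen with earlier results of these data known.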

How the data were processed

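A strand-specific TruSeq kit was used for the libraries, per the labels' protocols. STAR 2.5.0, Cuffdiff 2.2.1, Cufflinks and mm10 are listed, without roles, per the submitters' processing notes. They name neither a gene annotation nor how strand was handled. The authors deposited 1 value per gene and library, read as FPKM from those tools and from values that are not whole and sum to 498348 to 546967 per library; no header states the unit. Of 22079 identifiers, 21984 matched GENCODE M21, which annotates the same build.

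Values were transformed as log2(FPKM + 1), which understates differences at low levels. Those at or above 1 FPKM on average were fitted with limma 3.58.1 in R 4.3.3. The fit used empirical Bayes with trend, genotype as the only term, two-sided tests and Benjamini-Hochberg over 10407 genes. It was also run on simulated data with independent noise, and the outcome is not given here. Such data hold no outlying values and no differences shared by many genes of a library. An adjusted p under 0.05 was the threshold. SEs and p-values rest on the spread between 2 libraries a group, drawn by limma towards that of genes of like level. They measure no other spread. Depth was estimated from the steps of low values in 3909 genes with 1 transcript, assuming fragments of 200 bases, and is approximate.

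The 8 genes and all lists were chosen with earlier results of these data known. From each pathway list the text names up to 3 genes with the largest differences among those with libraries apart, and the 6 profiles nearest to Depp1 (unnamed gene models left out). Alternatives were a pseudocount of 0.1, no filter or a mean of at least 5 FPKM, median-of-ratios scaling, no trend, a replicate block and leaving out each library. Promoter sequences are RefSeq's (GRCm38.p6). No per-sample column was left unused. The counts of FOXO targets include 1 gene whose own values are not reported here.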

Additional observations from a re-analysis of the deposited data

How the results depend on the processing

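Of 54 alternative values for the 8 genes, 53 kept the sign of the reported difference, and Foxo4 without KO 1 (0.08) did not. For the 7 genes with libraries apart, changing the pseudocount or filter or leaving out 1 library could not change the sign. Their kept signs are therefore no check of the result. With any 1 library left out 7 to 8 genes had KO below WT, where fewer than 7 was not possible. At a mean of at least 5 FPKM 5 genes did, as Foxo1 and Txnip were not tested there. The count of genes with an adjusted p under 0.05 was 0 in all settings that kept the 4 libraries. With 1 left out that count ran from 0 to 8 (8 without WT 1 and 5 without KO 1). The count at an unadjusted p under 0.05 was 759 and ran from 318 (without WT 2) to 1227 (without KO 2). A fit with 1 library left out has a group of 1 library, which gives no spread of its own. Its counts show only how far the results hang on single libraries. No gene, Depp1 included, is read from them as passing. FOXO targets with KO below WT numbered 25 to 30 of 35 with 1 library left out, against 32.2% to 39.3% of all genes. Fewer than 23 was not possible, as 23 were apart and lower with all libraries. The labels number the replicates, but 2 pairs with a correlation of deviations of 0.151 do not show that numbers pair libraries; a replicate block gave 0 genes at the adjusted and 1054 at the unadjusted threshold.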
